A study of Homo sapiens with 4 samples.

Results

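Of the 26364 genes listed in each RNA-seq sample, 9 were examined that encode regulators or transcriptional targets of p53. They were picked by gene symbol, with earlier results of these data known. MDM2, MDM4 and PPM1D were taken as regulators, and GADD45A, SESN1, TP53INP1 and ZMAT3 as growth arrest and stress genes. FAS and TNFRSF10B were taken as death receptors. Both conditions had 2 samples: control cells (Ctrl) given a non-targeting siRNA, and knockdown cells (MYCN KD) given siRNA against MYCN. All 4 samples were BE(2)C cells transfected for 6 h with a Lipofectamine reagent and collected the next day. The sample labels give 80 nM of siRNA, and the methods of the study state a lower concentration. BE(2)C is a MYCN-amplified human neuroblastoma line grown from 1 clone and is known to carry a mutated p53, a background that the Ctrl and MYCN KD samples share. The question was how the transcripts around p53 behaved when MYCN, a transcription factor that drives growth, was lowered.

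The values are RPKM (reads scaled to gene length and to sequencing depth), which the authors calculated from read counts after removing unwanted variation. The totals of reads implied by the values lay from 29055819 to 34142988 per sample. MYCN itself had 1067.9 and 1073.0 RPKM in the Ctrl samples and 720.2 and 718.0 RPKM in the MYCN KD samples. Its log2 fold change was -0.57 (SE 0.0286, limma adjusted p = 0.00361), and the mean in MYCN KD was 0.672 of that in Ctrl. All 10 adrenergic neuroblastoma markers were detected (6 called higher and 1 lower in MYCN KD), with summed levels of 3860.4 and 3555.3 RPKM in Ctrl against 5016.9 and 5436.9 RPKM in MYCN KD. Of 5 leukocyte and blood markers, HBB was listed at 0 and PTPRC had at most 1 read, whereas CD68 had 4.26 and 3.45 RPKM in Ctrl against 9.40 and 11.5 RPKM in MYCN KD. Of 4 fibroblast markers tested 3 were higher, and the summed level of all 5 was 23.0 and 25 RPKM in Ctrl against 31.0 and 28.4 RPKM in MYCN KD. The part of these markers in the results was not tested. The replicates differed from each other in mirrored directions in the Ctrl and MYCN KD pairs, with a Pearson correlation of -0.9845 across 11411 genes between the deviations of Ctrl replicate 1 and of MYCN KD replicate 1.

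p53 is a transcription factor that is kept low in unstressed cells and accumulates after DNA damage, oncogene activity or ribosomal stress. MDM2, a ubiquitin ligase, marks p53 for degradation, MDM4 is its paralog that blocks p53 activity, and PPM1D is a phosphatase that reverses the damage signal. MDM2 and PPM1D are themselves p53 targets, which closes a negative feedback loop. Other targets halt the cell cycle, limit oxidative stress or sensitise the cell to death. In neuroblastoma the p53 pathway is usually intact at diagnosis and is altered more often at relapse, and MYCN is known to act on MDM2 and p53 transcription.

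Upon MYCN knockdown, TP53INP1 rose 9.94-fold by mean RPKM, GADD45A rose slightly and SESN1 fell. With all 4 samples, no block and the deposited scaling, 0 of the 3 regulators passed with limma or limma voom. PPM1D had an unadjusted limma p of 0.0386, and it passed after median-of-ratios scaling or quantile normalization. Differences were tested on log2(RPKM + 1) with limma over the 11411 genes whose mean RPKM reached 1, and an adjusted p under 0.05 (Benjamini-Hochberg) was called. FAS was under this level, so 8 of the 9 genes were tested. Of these 8, 2 were higher and 1 was lower in MYCN KD. Among all tested genes 25.3% were called higher and 22.8% lower, so the number of calls among the 8 was near that of the transcriptome. The median log2 fold change of the 8 genes was -0.02, beside 0.03 over all tested genes.

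**Figure D1:**
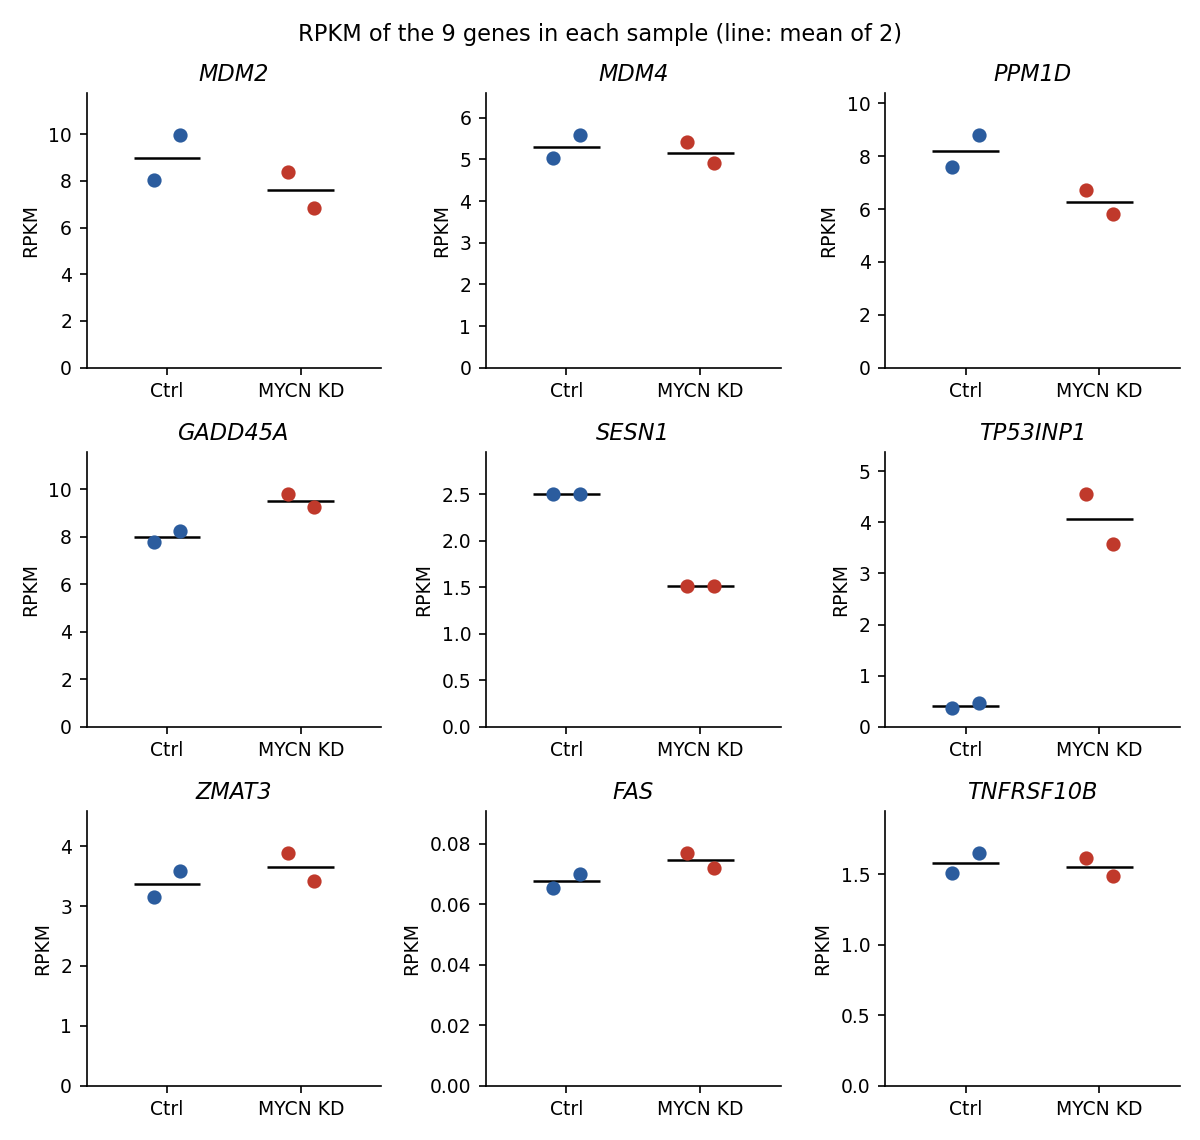
RPKM of each of the 9 genes (vertical axes from 0, a different scale in each panel) in the Ctrl samples (blue) and the MYCN KD samples (red). Each point is 1 sample and each line is the mean of 2 samples; TP53INP1 went from at most 0.459 RPKM to at least 3.57 RPKM, SESN1 from 2.50 to 1.51 RPKM, and the points of MDM2, MDM4, ZMAT3 and TNFRSF10B overlapped between Ctrl and MYCN KD.

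On the RPKM scale, which allows levels to be compared between genes, GADD45A (7.77 to 9.78 over the 4 samples), MDM2 (6.84 to 9.95) and PPM1D (5.83 to 8.79) were the most abundant of the 9, and their ranges overlapped. MDM4 followed with 4.91 to 5.58 RPKM and ZMAT3 with 3.15 to 3.88 RPKM. SESN1 (1.51 to 2.50) and TNFRSF10B (1.49 to 1.65) were low and their ranges overlapped, and FAS was nearly silent at 0.0654 to 0.0768 RPKM. TP53INP1 had no fixed place in this order, since it was below TNFRSF10B in Ctrl and above ZMAT3 on average in MYCN KD.

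SESN1 and FAS are shown here by promoter sequence because, of the windows found, only theirs held an exact match to the p53 half-site consensus. The search allowed no mismatch and looked for single half-sites, so a window without a match is not shown to lack a p53 site. Windows of 300 bases, from 250 before to 50 after a transcription start, were taken from RefSeq on GRCh38.p14. Windows were found for 6 of the 9 genes (14 windows), and the genes without one are GADD45A, TP53INP1 and TNFRSF10B. The E-box CACGTG, the motif of MYC proteins, was in 0 of the 14 windows and in 8.14% of the 22224 windows of all listed genes. The p53 half-site consensus of 10 bases was in 2 of the 14 windows and in 6.36% of all windows. Both motifs read the same on either strand, so 1 search covers both strands, and they were counted separately. These windows were chosen for printing after the search. The window of SESN1 is chr6:109008939-109009238 on the minus strand, 1 of its 3 windows, and that of FAS is chr10:88991181-88991480 on the plus strand, also 1 of 3. The capitals mark the match, whose first base is at position -49 from the transcription start in SESN1 and at -122 in FAS.
SESN1: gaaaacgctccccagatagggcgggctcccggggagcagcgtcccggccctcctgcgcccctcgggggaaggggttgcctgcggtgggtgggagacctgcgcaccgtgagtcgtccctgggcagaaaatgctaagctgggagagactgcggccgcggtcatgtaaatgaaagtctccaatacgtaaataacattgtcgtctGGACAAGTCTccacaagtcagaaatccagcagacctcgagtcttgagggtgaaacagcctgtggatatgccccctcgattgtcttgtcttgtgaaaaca
FAS: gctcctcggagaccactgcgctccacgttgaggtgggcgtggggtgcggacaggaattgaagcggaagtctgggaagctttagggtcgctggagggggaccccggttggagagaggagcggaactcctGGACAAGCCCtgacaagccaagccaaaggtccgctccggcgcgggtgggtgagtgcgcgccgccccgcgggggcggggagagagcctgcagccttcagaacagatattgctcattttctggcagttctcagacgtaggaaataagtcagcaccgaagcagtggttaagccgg
The gene with the first sequence fell upon MYCN knockdown and the gene with the second was nearly silent in all samples. A match of letters is a description and does not show that p53 binds there in BE(2)C cells.

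Among the regulators, MDM2 (chr12:69201957-69239324 of GRCh37, plus strand) had 8.03 and 9.95 RPKM in the Ctrl samples and 8.40 and 6.84 RPKM in the MYCN KD samples. The higher MYCN KD value lay between the Ctrl values. The log2 fold change was -0.21 (95% interval -0.65 to 0.23, limma adjusted p = 0.306). This interval still allows a fall or a small rise. The log2 fold change was -0.35 without Ctrl replicate 1 and -0.34 without MYCN KD replicate 1. It was -0.07 without Ctrl replicate 2 and -0.08 without MYCN KD replicate 2, so its size depended on the sample left out.

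MDM4 (chr1:204485507-204527248, plus strand) had 5.04 and 5.58 RPKM in Ctrl against 5.42 and 4.91 RPKM in MYCN KD. The samples interleaved, and the log2 fold change was -0.03 (95% interval -0.26 to 0.19, limma adjusted p = 0.731). Its sign was positive after the RPKM sums of the samples were made equal, so no direction can be given. The RPKM of MDM2 was 1.59 and 1.78 times that of MDM4 in the Ctrl samples and 1.55 and 1.39 times in the MYCN KD samples. MDM2 was therefore the more abundant of the pair in each sample. On the log2(RPKM + 1) scale the difference between them was lower by 0.18 in MYCN KD (a change of -0.18), with both MYCN KD samples under both Ctrl samples, and the exact permutation test (two-sided, 2 against 2 samples) gave p = 0.3333, the smallest it can give.

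PPM1D (chr17:58677554-58743641, plus strand), which encodes the phosphatase WIP1, had 7.59 and 8.79 RPKM in Ctrl against 6.71 and 5.83 RPKM in MYCN KD. Both MYCN KD samples were under both Ctrl samples, as in 4086 of all 11411 tested genes. The log2 fold change of -0.34 (95% interval -0.64 to -0.03) did not pass the threshold (limma adjusted p = 0.0714). It passed with median-of-ratios scaling (-0.36, limma adjusted p = 0.0377) and quantile normalization (-0.39, limma adjusted p = 0.0224). With 1 sample left out, it ran from -0.43 (without Ctrl replicate 1) to -0.24 (without Ctrl replicate 2).

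TP53INP1 (chr8:95938200-95961606, minus strand), whose product promotes p53-dependent arrest and death and takes part in autophagy, changed most of the 9. The Ctrl samples had 0.358 and 0.459 RPKM, the MYCN KD samples 4.55 and 3.57 RPKM. The Ctrl values rest on 69 reads (exact 95% Poisson interval 53.7 to 87.3) and 83 reads (66.1 to 102.9), and the MYCN KD values on 747 reads (694.4 to 802.5) and 625 reads (577.0 to 676.0). These intervals cover counting error only, and those of Ctrl and MYCN KD are far apart. The mean RPKM was 9.94 times higher in MYCN KD. On the log2(RPKM + 1) scale, which understates the change of a gene this low in Ctrl, the log2 fold change was 1.84 (95% interval 1.49 to 2.19, limma adjusted p = 0.0043), and with a pseudocount of 0.1 it was 3.03. TP53INP1 ranked 10 of 11411 tested genes by the size of the rise. NDUFAF6, on the opposite strand, overlaps TP53INP1 in the annotation used here, as CPM does MDM2, ACTA2 does FAS and RHOBTB2 does TNFRSF10B, and the strand of the libraries is not given in the sources used here. NDUFAF6 went the other way, with 6.20 and 7.09 RPKM in Ctrl against 4.92 and 4.34 RPKM in MYCN KD (log2 fold change -0.44, limma adjusted p = 0.0317).

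GADD45A (chr1:68150884-68154017, plus strand), a small stress protein that binds PCNA and cell cycle kinases, had 7.77 and 8.23 RPKM in Ctrl against 9.78 and 9.25 RPKM in MYCN KD. Both MYCN KD samples were above both Ctrl samples, as in 4605 of all 11411 tested genes, with a mean 1.19 times higher. The log2 fold change was 0.22 (95% interval 0.07 to 0.38, limma adjusted p = 0.0418). The call was close to the threshold: it was lost without a filter on low values (limma adjusted p = 0.0597) and without any 1 of the 4 samples (limma adjusted p from 0.134 to 0.327).

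SESN1 (chr6:109305512-109416049, minus strand), a sestrin that lowers mTORC1 signalling and protects from oxidative stress, was the member that fell. Ctrl replicates both had 2.50 RPKM and MYCN KD replicates both had 1.51 RPKM, from 310 and 290 reads in Ctrl and 159 and 170 reads in MYCN KD. The mean in MYCN KD was 0.604 of that in Ctrl, with a log2 fold change of -0.48 (SE 0.036, 95% interval -0.59 to -0.37, limma adjusted p = 0.00509). The counting intervals of the reads were 276.4 to 346.5 for the first Ctrl sample and 135.2 to 185.7 for the first MYCN KD sample. The replicate RPKM values of SESN1 thus lay closer together than counting error alone would place them. The SE, interval and adjusted p of SESN1 rest partly on this small spread, so they may overstate the certainty of the fall. Of its paralogs, SESN2 had 11.5 and 10.4 RPKM in Ctrl against 11.2 and 12.4 RPKM in MYCN KD (log2 fold change 0.10, limma adjusted p = 0.386). SESN3 had 6.65 and 8.0 RPKM in Ctrl against 11.9 and 9.95 RPKM in MYCN KD (log2 fold change 0.52, limma adjusted p = 0.0471), a rise that was not called without a filter on low values (limma adjusted p = 0.0737) or after the RPKM sums of the samples were made equal (limma adjusted p = 0.0502). Whether the changes of the 3 sestrins differ from each other was not tested.

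ZMAT3 (chr3:178677909-178790003, minus strand), a zinc finger RNA-binding protein that acts in p53-dependent splicing and growth suppression, had 3.15 and 3.58 RPKM in Ctrl against 3.88 and 3.42 RPKM in MYCN KD. The samples interleaved, with a log2 fold change of 0.09 (95% interval -0.16 to 0.35, limma adjusted p = 0.421).

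**Figure D2:**
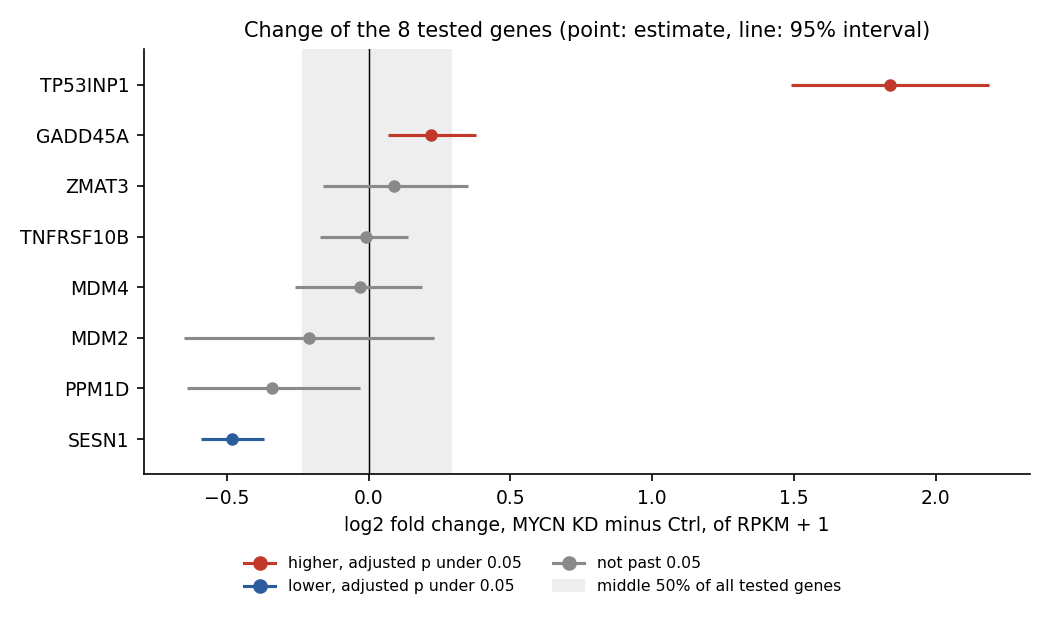
Log2 fold change (horizontal axis, MYCN KD minus Ctrl, of RPKM + 1) of the 8 tested genes, 1 per row. Points are limma estimates, lines are 95% intervals from 2 samples per condition, and the grey band spans the middle of all tested genes, from -0.23 to 0.29; TP53INP1 at 1.84 lies far to the right of the band, SESN1 at -0.48 and PPM1D at -0.34 to its left, and the other 5 estimates inside it.

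The death receptors carry the death signal of ligands from outside the cell. TNFRSF10B (chr8:22877646-22926544, minus strand), the TRAIL receptor DR5, had 1.51 and 1.65 RPKM in Ctrl against 1.62 and 1.49 RPKM in MYCN KD. The samples interleaved, the log2 fold change was -0.01 (95% interval -0.17 to 0.14, limma adjusted p = 0.849), and its sign was positive after the RPKM sums of the samples were made equal. FAS (chr10:90750414-90775542, plus strand), the receptor of FAS ligand, had 0.0654 and 0.0698 RPKM in Ctrl against 0.0768 and 0.0721 RPKM in MYCN KD. These values correspond to 6 reads in each of the 4 samples (exact 95% Poisson interval 2.2 to 13.1), taking the smallest read number that makes all values whole, so the differences in RPKM come from the sample totals. No difference in FAS was detectable at this depth. Of the other TRAIL receptors, the signalling receptor TNFRSF10A had 9 to 12 reads per sample, the decoy receptor TNFRSF10D had 2 to 10 reads, and the decoy receptor TNFRSF10C had 1 read in each Ctrl sample and 5 and 7 reads in the MYCN KD samples. All of them were at most 0.222 RPKM and were not tested.

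Beyond the 9 genes, a list of other known p53 targets was written with earlier results of these data known. Of its genes, 37 were listed in the data and 27 were tested. Upon MYCN knockdown 12 of them rose and 4 fell, beside 25.3% and 22.8% of all tested genes called higher and lower, and the median log2 fold change was 0.26 beside 0.03. The genes named here outside the largest changes are given to complete the counts and were picked after their values were seen. Among 7 tested growth arrest genes, 4 rose (CDKN1A, PLK2, GDF15 and PLK3) and 0 fell, with an estimate above 0 in each of the 7. CDKN1A, which encodes the cell cycle inhibitor p21, rose from 7.08 and 7.63 RPKM in Ctrl to 23.1 and 21.4 RPKM in MYCN KD (log2 fold change 1.48, SE 0.0644, limma adjusted p = 0.00359). PLK2, a kinase induced by stress, rose from 3.63 and 3.90 RPKM to 7.65 and 7.13 RPKM (log2 fold change 0.82, limma adjusted p = 0.00491).

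Of 9 tested cell death genes, 4 were higher (TP53I3, BBC3, APAF1 and CDIP1) and 3 lower (AEN, PMAIP1 and TRIAP1). Among all tested genes 25.3% were called higher and 22.8% lower. TP53I3, an oxidoreductase that generates reactive oxygen species, rose from 44.8 and 41.7 RPKM to 85.1 and 91.2 RPKM (log2 fold change 1.01, limma adjusted p = 0.00422). BBC3, which encodes the BH3-only protein PUMA, had 1.38 and 0.970 RPKM in Ctrl against 2.04 and 2.88 RPKM in MYCN KD. Its log2 fold change of 0.66 was at the threshold (limma adjusted p = 0.04997), and the call was lost in 4 alternative fits. PMAIP1, which encodes the BH3-only protein NOXA, fell from 8.55 and 10.1 RPKM to 5.48 and 4.66 RPKM (log2 fold change -0.77, limma adjusted p = 0.0164). AEN, an exonuclease of apoptotic cells, fell from 51.6 and 50.3 RPKM to 27.7 and 28.5 RPKM (log2 fold change -0.84, limma adjusted p = 0.00359). TRIAP1, an inhibitor of apoptosis, fell from 31.9 and 33.6 RPKM to 23.9 and 22.8 RPKM (log2 fold change -0.47, limma adjusted p = 0.00828). BAX, the effector of mitochondrial permeabilisation, was abundant, with 64.7 and 59.3 RPKM in Ctrl against 54.8 and 59.8 RPKM in MYCN KD (log2 fold change -0.11, limma adjusted p = 0.274).

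Of 4 repair and nucleotide supply genes, DDB2 rose and the other 3 did not pass. RRM2B, a ribonucleotide reductase subunit, had 1.35 and 1.92 RPKM in Ctrl against 2.51 and 1.78 RPKM in MYCN KD, with overlapping samples (log2 fold change 0.26, limma adjusted p = 0.299). Leaving out Ctrl replicate 2 (0.41) or MYCN KD replicate 2 (0.42) raised the log2 fold change of RRM2B. Leaving out Ctrl replicate 1 (0.10) or MYCN KD replicate 1 (0.09) lowered it. Of 7 metabolism and autophagy genes, 3 rose (SESN3, PRKAB1 and FDXR) and 1 fell (TIGAR). These counts of both groups stand beside 25.3% and 22.8% of all tested genes called higher and lower.

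**Figure D3:**
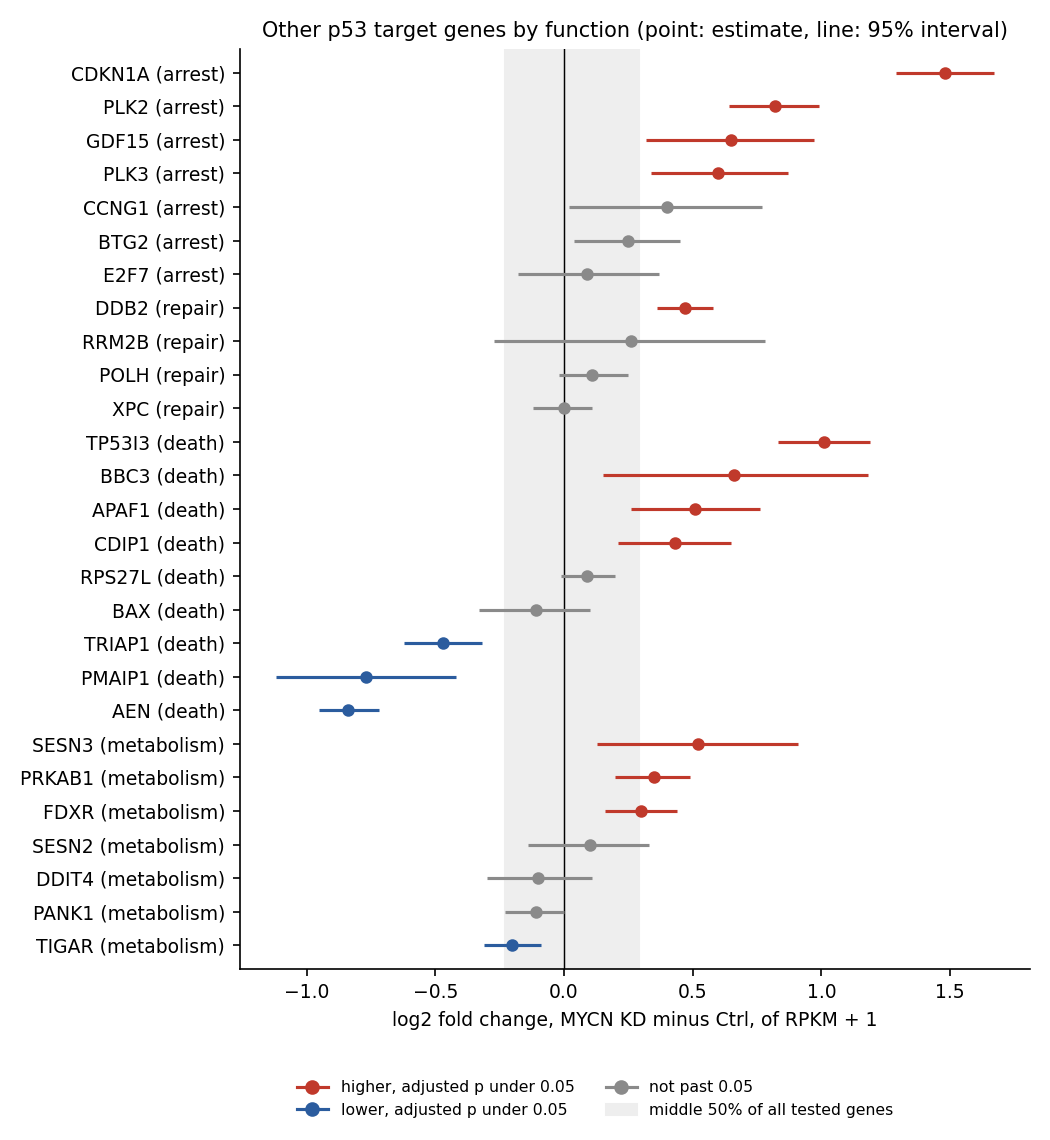
Log2 fold change (horizontal axis, MYCN KD minus Ctrl, of RPKM + 1) of the 27 tested p53 target genes outside the 9, grouped by function. Points are limma estimates, lines are 95% intervals from 2 samples per condition, and the grey band is the middle of all tested genes; the growth arrest genes lie at or to the right of 0.09, whereas the cell death genes run from -0.84 (AEN) to 1.01 (TP53I3).

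Of 26 other listed regulators of p53, 25 were tested, and 1 rose, 12 fell and 12 did not pass, beside 25.3% and 22.8% of all tested genes. The median log2 fold change was -0.16, beside 0.03. This list too was written with earlier results of these data known. The gene that rose, PPP1R13B, encodes ASPP1, a cofactor that directs p53 to death genes. It had 32.4 and 33.8 RPKM in Ctrl against 59.9 and 57.3 RPKM in MYCN KD (log2 fold change 0.80, limma adjusted p = 0.00394). After the RPKM sums of the samples were made equal, 2 regulators were higher, beside 3279 of all 11411 tested genes.

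The largest falls were in GNL3, CHEK2 and NPM1. GNL3, which encodes the nucleolar protein nucleostemin that binds MDM2, fell from 32.5 and 34.4 RPKM to 14.7 and 14.0 RPKM (log2 fold change -1.17, limma adjusted p = 0.00359). CHEK2, a checkpoint kinase that phosphorylates p53, fell from 15.8 and 14.3 RPKM to 6.11 and 6.75 RPKM (log2 fold change -1.11, limma adjusted p = 0.00471). NPM1, a nucleolar chaperone that binds MDM2 and ARF, fell from 353.5 and 378.4 RPKM to 181.5 and 170.3 RPKM (log2 fold change -1.05, limma adjusted p = 0.00383). In each of the 3, both MYCN KD samples lay under both Ctrl samples, as in 4086 of all 11411 tested genes. NPM1 and CHEK2 have pseudogene copies, to which the authors' counting could have assigned part of the reads. The bulk libraries do not tell a change in every cell from a change in some of the cells.

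**Figure D4:**
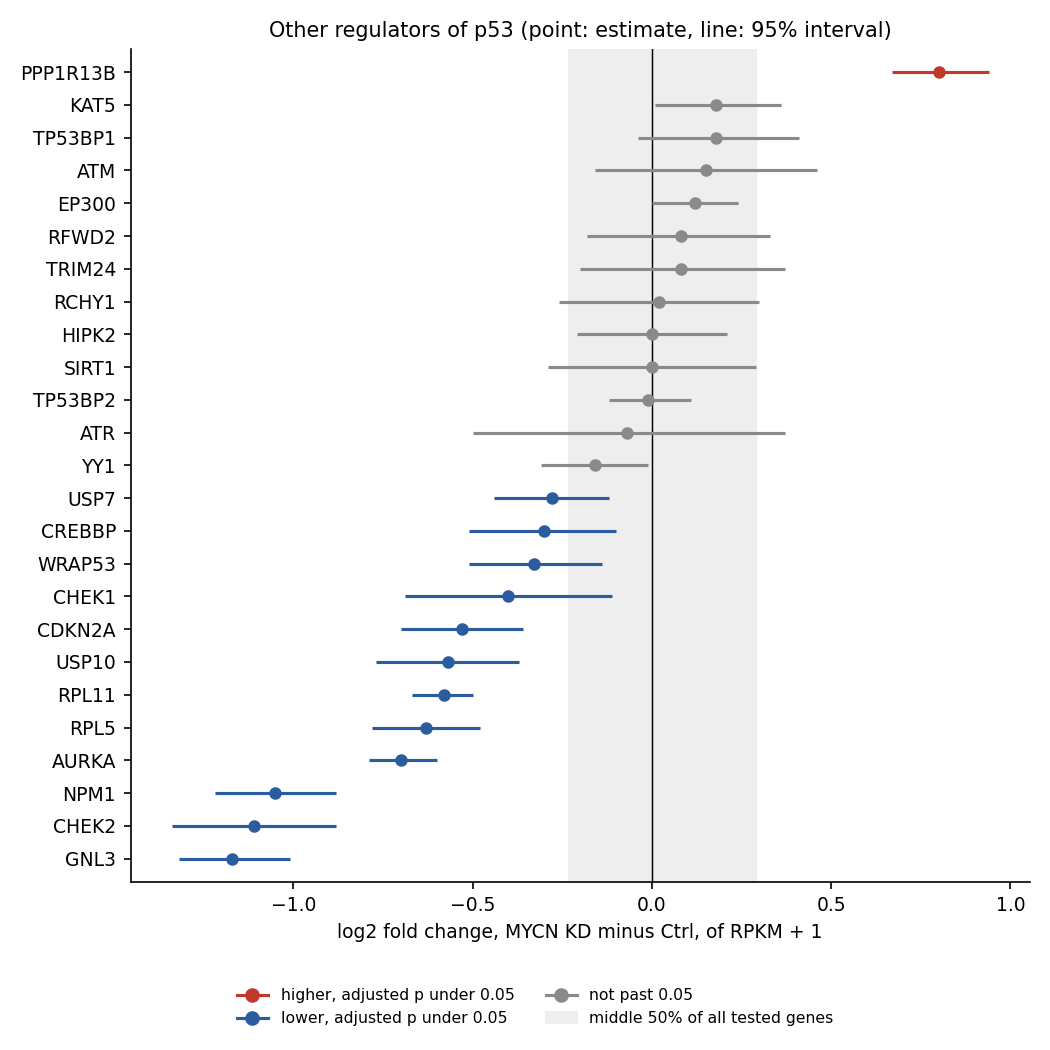
Log2 fold change (horizontal axis, MYCN KD minus Ctrl, of RPKM + 1) of the 25 tested regulators of p53 other than MDM2, MDM4 and PPM1D, in order of size. Points are limma estimates, lines are 95% intervals from 2 samples per condition, and the grey band is the middle of all tested genes; 12 genes lie past the threshold on the left, down to -1.17 for GNL3, and PPP1R13B at 0.80 alone lies past it on the right.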

How the data were processed

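Per the labels and the methods of the study, the authors used HISAT2 2.1.0 for alignment to hg19, featureCounts with RefSeq genes, DESeq2 and RUVSeq, and the deposited values are RPKM made from normalized counts, 1 file per sample. The number of factors removed by RUVSeq is not given in the sources used here. Samples were grouped by their titles.

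The limma model was fitted to log2(RPKM + 1), with limma 3.58.1 (lmFit, eBayes with a trend) in R 4.3.3 for the 11411 genes whose mean RPKM reached 1. P-values were adjusted by the Benjamini-Hochberg method with a threshold of 0.05, 2 residual degrees of freedom and no block. Symbols of 4 rows were repeated and kept apart. Same-numbered samples were checked and deviated in opposite directions (r = -0.9845), so the numbers were not taken as pairs. The model treats the deviations in Ctrl and in MYCN KD as independent and does not include this mirrored pattern, which limits its p-values. The methods of the study call the RNA-seq replicates biological, and nothing in the labels says that they were separate cultures. The p-values measure only the spread between these samples, part of which may be technical.

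RPKM values of all 19908 genes above 0 were whole multiples of the value of 1 read (tolerance 0.02 reads), which gave reads and totals per sample. The reads had been adjusted before deposit, so intervals from them cover counting error only. Chi-square per gene between replicates was 12.8 for Ctrl and 11.5 for MYCN KD, so the replicate files differ by more than counting error and were kept as separate samples.

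The 9 genes and the lists of other targets, regulators and markers were chosen with earlier results of these data known, and the genes named by rule are the 9, MYCN, 4 set targets (CDKN1A, RRM2B, BAX and BBC3), paralogs, and the 3 largest called rises and falls of each list. Further genes were named after their values were seen, to complete counts or because they overlap one of the 9. Positions came from GENCODE 44 lifted to GRCh37. The limma step and the recovery of reads were tested on simulated data. The limma simulation drew the samples independently, so it does not cover the mirrored deviations of the replicates. Alternatives were another pseudocount, other filters, limma voom on the recovered reads, 3 scalings, the replicate block, leaving out each sample, and eBayes with no trend. Figures were drawn with matplotlib 3.10.9, and tables made with pandas 2.3.3 and scipy 1.17.1 in Python 3.11.15.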

Additional observations from a re-analysis of the deposited data

How the results depend on the processing

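TP53INP1 stayed higher and past the threshold under each alternative that tested it (log2 fold change from 1.70 to 3.31), SESN1 stayed lower and past it (-0.73 to -0.44), and so did MYCN (-0.60 to -0.38). The mean RPKM of at least 5 removed TP53INP1 and SESN1, among others, and left 1 of the 9 genes higher, 0 lower and 7 other targets higher, by construction of fewer genes tested. GADD45A was no longer called without a filter (0.225) or with the replicate block (0.225), which left 1 gene higher in each case. Without a filter, 3384 of all 19908 tested genes were higher. Of the other genes named, the replicate block also ended the calls of TIGAR (-0.20, limma adjusted p = 0.363), FDXR (0.30, 0.154), PRKAB1 (0.35, 0.0739) and RHOBTB2 (0.30, 0.136). The block left 11 other targets higher, 3 lower and 9 other regulators lower. Over all 11411 tested genes it called 2077 higher and 1851 lower, fewer than without a block. PPM1D was called with median-of-ratios scaling (-0.36) and quantile normalization (-0.388), which made 2 genes lower. Over all 11411 tested genes, 2846 and 2993 were lower in these fits. After the RPKM sums of the samples were made equal, MDM4 (0.0172) and TNFRSF10B (0.0238) changed sign. In that fit 2 other regulators were higher, beside 3279 of all 11411 tested genes. FAS, untested, had 0.0581 with a pseudocount of 0.1, -0.0116 with quantile normalization and 0.14 with limma voom.

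With a sample left out, the log2 fold change ran from -0.352 to -0.0737 for MDM2 and from -0.0958 to 0.0277 for MDM4. It ran from -0.431 to -0.243 for PPM1D, 0.188 to 0.261 for GADD45A and -0.0526 to 0.0257 for TNFRSF10B. These fits and the replicate block have 1 residual degree of freedom, assume that the lone sample varies like the others and take the variance from the trend with mean expression. A crossed replicate block was added after seeing the data because of the mirrored deviations. It called nearly all of the 11411 tested genes (5910 higher and 5262 lower), so its calls do not set any of the genes here apart. Of the 9 genes, 3 were then higher and 4 lower, the latter including MDM2, MDM4 and PPM1D. Of the other targets 19 were higher and 7 lower, and of the other regulators 8 were higher and 15 lower. Over all 11411 tested genes, 2890 were higher and 2599 lower as reported. When the mean RPKM had to reach 5, 1868 were higher and 2106 lower of 7859 tested. Apart from these limits, the causes were not tested. Depth limits FAS and the decoy receptors.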
